A study of Mus musculus with 76 samples.

Results

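The circadian clock genes described here are Arntl, Clock, Npas2, Per1, Per2, Per3, Cry1, Nr1d1, Nr1d2 and Dbp. They were taken by gene symbol, whatever their values, from 2 tables of normalized read counts of the mouse, 1 for liver and 1 for visceral white adipose tissue (WAT). All 10 were found under these symbols among 18964 entries in WAT and 16775 entries in liver, and all 10 passed a minimum mean of 10 normalized counts in both tissues. The study compared female mice carrying 2 copies of an edited Fnip2 allele, Fnip2C/C, with Fnip2T/T mice that carry the ancestral allele. The edit is a CRISPR/Cas9 knock-in on a C57BL/6 background of a T-to-C change in the 3′ untranslated region of Fnip2, a partner of folliculin, together with a G-to-C change beside it that removes the Cas9 recognition site. Both genotypes had free access to food and drink and a standard chow, were housed under dark/light cycles, and received no other treatment. The labels and the methods give neither the age of these mice nor the hour at which tissue was taken. Livers came from 5 Fnip2C/C and 5 Fnip2T/T mice, WAT came from 4 Fnip2C/C and 5 Fnip2T/T mice, and 6 of the 13 mice gave both tissues.

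The mammalian clock is a feedback loop of transcription and translation that runs in nearly every cell and is set by light, feeding and hormones. ARNTL (also called BMAL1) pairs with CLOCK or NPAS2 and activates genes through E-box sequences, among them the Period and Cryptochrome genes, whose proteins return to block that activation. The same pair drives Nr1d1 and Nr1d2, which encode the REV-ERB repressors that hold down Arntl, and Dbp, whose protein activates further genes through D-box sequences. Most of these transcripts rise and fall over the day in liver and fat, so that their level in a single sample reflects, among other things, when the sample was taken.

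Depth, as the reads counted on genes, was 4180209 to 6277644 for a WAT library and 5583041 to 7523200 for a liver library. The edited gene Fnip2 did not pass the test in either tissue, at -0.27 on the log2 scale for WAT (standard error, SE, 0.35, limma adjusted p = 0.58) and 0.63 for liver (SE 0.23, limma adjusted p = 1.00). In liver its unadjusted limma p was 0.0148, and 1.97% of all liver genes had one under 0.05. Its liver counts were 133 to 197 in Fnip2C/C and 49.2 to 134 in Fnip2T/T, overlapping through the Fnip2T/T mouse 607. The tables do not read the edited base. The 8 hepatocyte markers summed to between 715945 and 914024 normalized counts in every liver, and all 8 adipocyte markers were present in WAT. In WAT, however, the summed adipocyte markers ran from 20621 to 59958 in Fnip2C/C mice and from 65613 to 86913 in Fnip2T/T mice, with no overlap. The Fnip2C/C WAT of mouse 593 held 21864 normalized counts of ovary markers, against 21.2 to 64.4 in the other WAT libraries. In WAT, 4111 of 12798 genes tested differed between the genotypes, and in liver none of 11710 did, so the members are set against these backgrounds.

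In WAT, Per1 and Per2 were lower in Fnip2C/C than in Fnip2T/T mice and Nr1d1 was higher, so that 3 of the 10 members passed an adjusted p under 0.05 in limma, the test fitted across all genes. The background was 32.1% of all genes tested, 15.1% being higher in Fnip2C/C and 17% lower, and 3 of 10 is near that share. The median log2 fold change, Fnip2C/C minus Fnip2T/T, was -0.28 over the members and 0.02 over all genes. Fold changes are on the log2(normalized count + 1) scale, which understates the change of genes with few reads. The adipocyte markers were lower in Fnip2C/C alongside these differences, as a contrast between the genotypes only. Within Fnip2C/C, mouse 593 had the lowest adipocyte sum, 20621. Its Nr1d1, 314, lay inside the Fnip2T/T range, and its Per1, 19.7, and Per2, 0.936, lay below that of Fnip2T/T. The part of the adipocyte markers in the differences was not tested. In bulk tissue, fewer cells of a type and less RNA per cell cannot be told apart.

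**Figure D1:**
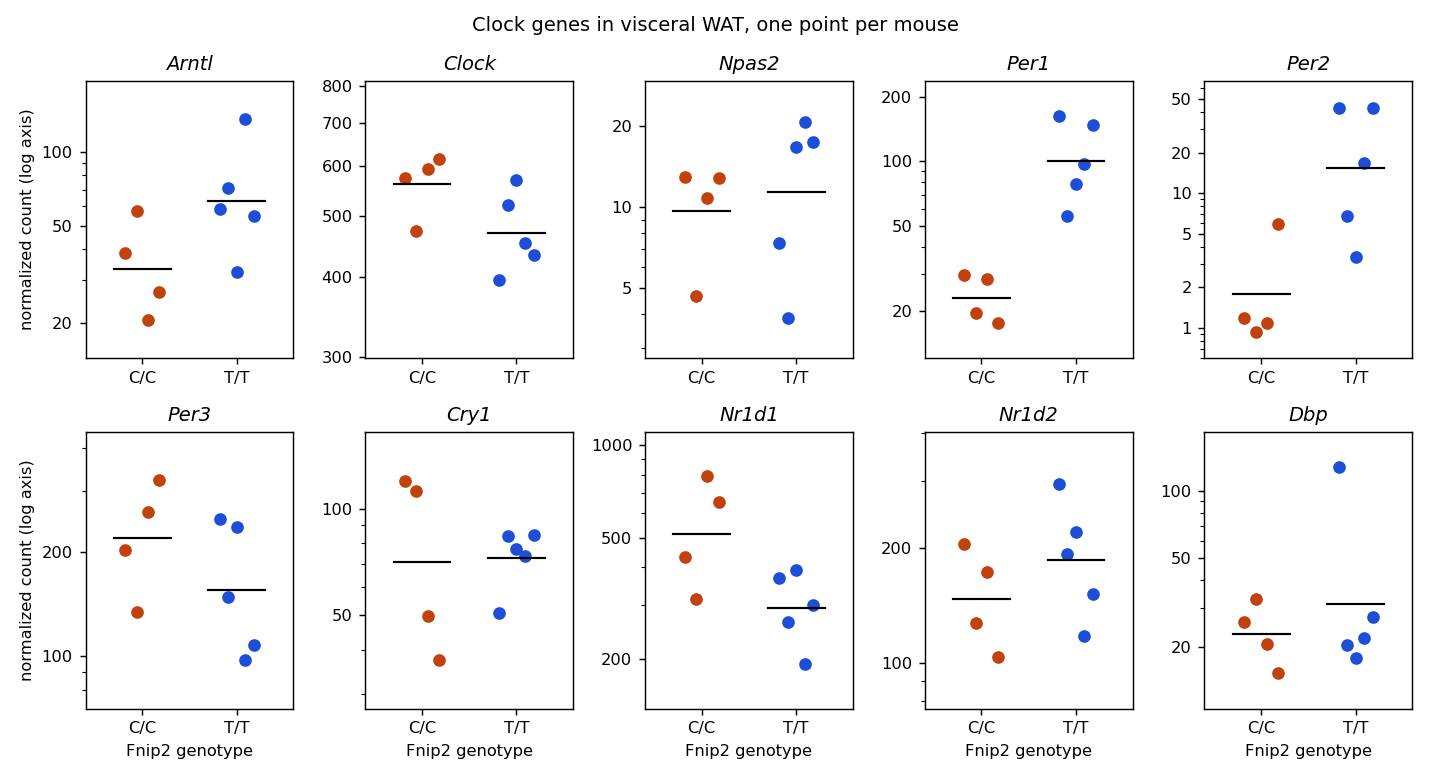
Normalized counts of the 10 clock genes in visceral WAT on a log axis, with 1 point per mouse for 4 Fnip2C/C (orange) and 5 Fnip2T/T (blue) libraries and a line at the mean of the log2 values. The Per1 points of Fnip2C/C, 17.6 to 29.4, all lie below those of Fnip2T/T, 55.5 to 163, while in the other 9 genes the genotypes overlap.

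Among the repressors of the loop, Per1 encodes a Period protein and also responds quickly to hormones such as glucocorticoids and to cAMP. Its normalized counts in WAT were 29.4, 19.7, 28.2 and 17.6 in the Fnip2C/C mice 590, 593, 599 and 638. In the Fnip2T/T mice 607, 608, 609, 657 and 658 they were 163, 55.5, 78.1, 97.2 and 148. Every Fnip2T/T library was higher than every Fnip2C/C library. Per1 averaged 23.7 ± 5.96 (SD, n = 4) in Fnip2C/C and 108 ± 45.9 (SD, n = 5) in Fnip2T/T, and its log2 fold change was -2.07 (SE 0.32, limma adjusted p = 0.00107, exact two-sided permutation p = 0.00794). Of all genes tested in WAT, 26.1% had genotypes that did not overlap, and 13.8% of all genes tested did not overlap and were lower in Fnip2C/C. The mice fall in 2 ranges of mouse number, and within each range Per1 was lower in Fnip2C/C, with log2 fold changes of -1.77 for mice 590 to 609 (3 against 3) and -2.70 for mice 638 to 658 (1 against 2). Without mouse 593, the library with ovary markers, Per1 kept its call (limma adjusted p = 0.003).

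Per2, the Period gene closest to Per1 in its role, was read sparsely in WAT. The Fnip2C/C libraries of mice 590, 593, 599 and 638 held 1, 1, 1 and 5 reads, and the Fnip2T/T libraries of mice 607, 608, 609, 657 and 658 held 52, 7, 3, 17 and 57 reads. As normalized counts these were 1.18, 0.936, 1.08 and 5.86 against 42.7, 6.81, 3.35, 16.9 and 43.2. The 3 lowest libraries were Fnip2C/C, but mouse 638 lay above the Fnip2T/T mouse 609, so that the genotypes overlapped. The log2 fold change was -2.55 (SE 0.77, limma adjusted p = 0.023, exact permutation p = 0.0317), but its size depended on the scale, at -1.20 with a pseudocount of 10 and -3.36 with DESeq2. The call was lost without any 1 of the mice 599, 607, 657 and 658, with adjusted p between 0.0523 and 0.0742 in these fits, and the direction was kept. Counting error is large at these depths, since a single read was worth about 1 normalized count.

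Per3 and Cry1 showed no difference that passed the test in WAT. Per3, a Period gene that is less needed for the core loop than Per1 and Per2, ranged from 134 to 322 in Fnip2C/C and from 97.2 to 249 in Fnip2T/T (log2 fold change 0.49, SE 0.32, limma adjusted p = 0.263). Cry1, which encodes a Cryptochrome repressor, was split within Fnip2C/C, with 120 and 112 in mice 590 and 593 and 49.9 and 37.5 in mice 599 and 638. The Fnip2T/T mice lay between 50.9 and 84.1, inside that spread, and the log2 fold change of -0.03 (SE 0.33) turned positive with quantile normalization, with edgeR and with DESeq2, and without any 1 of 4 mice.

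The REV-ERB gene Nr1d1 stood at 433, 314, 795 and 651 normalized counts in WAT of the Fnip2C/C mice 590, 593, 599 and 638. In Fnip2T/T mice 607, 608, 609, 657 and 658 the values were 369, 265, 393, 192 and 301. Of the Fnip2C/C libraries, 3 lay above every Fnip2T/T library and mouse 593 lay among them. The log2 fold change was 0.80 (SE 0.28, limma adjusted p = 0.0437, exact permutation p = 0.0476), and this call was the least secure of the 3. It was lost without any 1 of the mice 599, 638, 608, 657 and 658 (limma adjusted p from 0.0718 to 0.139), with quantile normalization (0.0648), with libraries scaled to the same total (0.0529) and with a term for the range of mouse numbers (0.0583). The call was kept without any 1 of the mice 590, 593, 607 and 609. Without mouse 593, the library with ovary markers, the log2 fold change was 1.04 (SE 0.26, limma adjusted p = 0.0129). Within the ranges of mouse number the difference was 0.50 and 1.43. Its relative Nr1d2 went in the opposite direction without passing the test, from 104 to 205 in Fnip2C/C and from 118 to 295 in Fnip2T/T (log2 fold change -0.34, SE 0.27, limma adjusted p = 0.365).

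The activators did not pass the test in WAT. Arntl, the partner shared by all activator pairs, had 38.8, 57.1, 20.6 and 26.9 normalized counts in Fnip2C/C and 58.3, 71.0, 32.4, 136 and 54.6 in Fnip2T/T. The groups overlapped through Fnip2C/C mouse 593 and Fnip2T/T mouse 609. The log2 fold change was -0.90 (SE 0.39, limma adjusted p = 0.0911, exact permutation p = 0.0952), and without mouse 593 or mouse 609 it passed the threshold (adjusted p = 0.0441 and 0.0312). Clock varied least of the members, from 473 to 614 in Fnip2C/C and from 396 to 570 in Fnip2T/T (log2 fold change 0.25, SE 0.17, limma adjusted p = 0.275). Npas2, which can stand in for CLOCK, was low in WAT, from 3.89 to 20.8 over all 9 libraries, with a log2 fold change of -0.22 (SE 0.52).

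Dbp, the output regulator, showed a single high WAT library. In Fnip2C/C it had 25.9, 32.8, 20.6 and 15.2 normalized counts in mice 590, 593, 599 and 638. The Fnip2T/T mouse 607 had 128, and the other Fnip2T/T mice 608, 609, 657 and 658 had 20.4, 17.9, 21.8 and 27.3. Apart from mouse 607 the genotypes covered nearly the same range. The log2 fold change was -0.43 (SE 0.50, limma adjusted p = 0.532), and it moved to 0.07 without mouse 607. In the annotation used here, exons of Dbp and Nr1d1 overlap exons of Sphk2 and Thra on the opposite strand. The library kit keeps strand, but the strand setting of the counting is not given in the sources used here, so that reads of these gene pairs may not be told apart.

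In liver, none of the 10 members differed between the genotypes at an adjusted p under 0.05, against a background of 0 of 11710 genes (0%), and none passed an unadjusted p under 0.05 in limma, against 1.97% of all genes. With edgeR's quasi-likelihood test and with DESeq2 on the recovered reads the number of members called was also 0, and 1 and 0 members passed an unadjusted p under 0.05. Every limma adjusted p of the members rounded to 1.00, and the genotypes overlapped in all 10, as they did in all but 0.248% of the genes tested. Without mouse 607, 4 of the 10 members passed an unadjusted p under 0.05 in limma, and so did 265 of the 11710 genes. No gene passed the adjusted p in that fit. In the WAT libraries used, Fnip2C/C carries even and Fnip2T/T odd RNA label numbers, whereas in liver each genotype holds both (2 even and 3 odd in Fnip2C/C, 3 even and 2 odd in Fnip2T/T), and the liver table lists its even numbers before its odd ones. Libraries were grouped as labelled, the tables hold no check of the genotype, and every WAT, liver and interaction value rests on these labels. In WAT, a difference tied to the parity of the label numbers cannot be told apart from one of genotype. What the livers did show was a wide spread between mice of the same genotype.

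**Figure D2:**
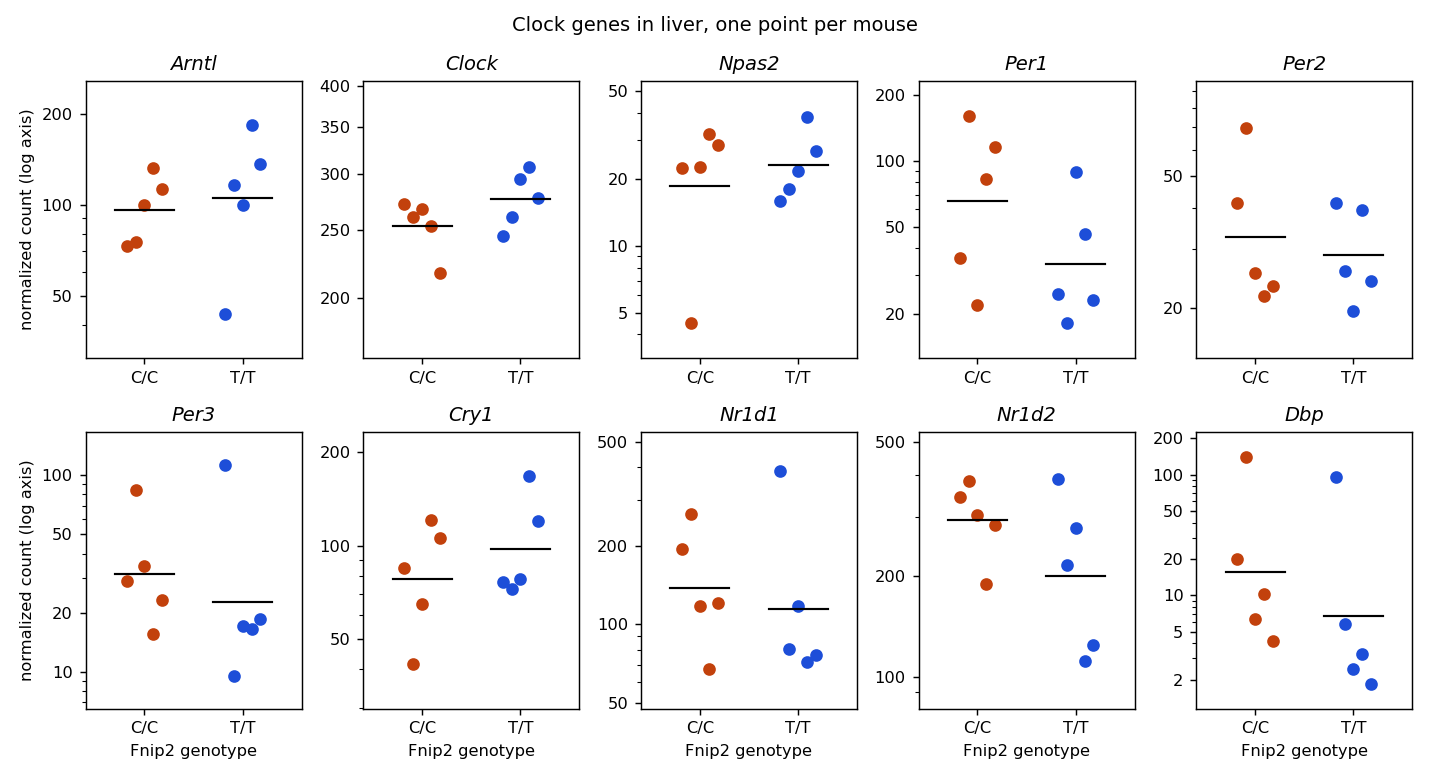
Normalized counts of the 10 clock genes in liver on a log axis, with 1 point per mouse for 5 Fnip2C/C (orange) and 5 Fnip2T/T (blue) libraries and a line at the mean of the log2 values. The genotypes overlap in every gene, and Dbp runs from 1.86 to 140 while Clock runs only from 218 to 307.

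Dbp spanned a 75.6-fold range over the 10 livers. The Fnip2C/C mice 590, 591, 592, 638 and 639 had 19.8, 140, 6.38, 10.3 and 4.22 normalized counts. The Fnip2T/T mice 607, 608, 657, 658 and 659 had 96.2, 5.73, 2.44, 3.29 and 1.86. Mouse 591 among Fnip2C/C and mouse 607 among Fnip2T/T stood far above the rest, and the lowest libraries rested on 2 to 4 reads. The log2 fold change was 1.11, smaller than its own SE of 1.21 (exact permutation p = 0.397). It was 0.34 without mouse 591 and 2.02 without mouse 607, and 0.54 with a pseudocount of 10.

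The REV-ERB genes were high in the same pair of livers. Nr1d1 had 195, 264, 118, 67.3 and 120 normalized counts in the Fnip2C/C mice 590, 591, 592, 638 and 639, and 386, 80.3, 117, 71.4 and 76.1 in the Fnip2T/T mice 607, 608, 657, 658 and 659. Nr1d2 had 345, 385, 304, 188 and 284 in Fnip2C/C and 389, 215, 278, 111 and 124 in Fnip2T/T. Mouse 607 was the highest liver of all for both genes, and mouse 591 was the second. The log2 fold changes were 0.26 (SE 0.55) for Nr1d1 and 0.55 (SE 0.35) for Nr1d2, and their exact permutation p-values were 0.667 and 0.206.

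Arntl ran the other way over these livers. It had 73.1, 75.1, 99.4, 132 and 113 normalized counts in the Fnip2C/C mice and 43.4, 116, 100, 183 and 136 in the Fnip2T/T mice, in the same order of mice. Mouse 607, highest for the REV-ERB genes, was the lowest for Arntl, and mouse 658, highest for Arntl, was the lowest for Nr1d2. The log2 fold change of Arntl was -0.12 (SE 0.33). Clock covered only a 1.41-fold range, from 218 to 307 (log2 fold change -0.12, SE 0.12). Npas2 lay between 16.0 and 38.4 apart from the Fnip2C/C mouse 591, which had 4.53 (log2 fold change -0.29, SE 0.42).

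Of the repressors in liver, Per1 had the widest difference between the means without passing the test. Its normalized counts were 36.1, 160, 21.9, 82.8 and 116 in Fnip2C/C and 24.5, 18.2, 89.0, 46.1 and 23.2 in Fnip2T/T. The Fnip2C/C libraries were spread over the whole range and 2 of them lay among the low Fnip2T/T libraries. The averages were 83.4 ± 57.0 (SD, n = 5) for Fnip2C/C and 40.2 ± 29.3 (SD, n = 5) for Fnip2T/T, and the log2 fold change was 0.95 (SE 0.63, exact permutation p = 0.206). Per2 lay between 19.5 and 69.7 over all livers, with a log2 fold change of 0.18 (SE 0.31). Per3 was at 113 in mouse 607 and 84.2 in mouse 591 and between 9.56 and 34.6 in the other livers (log2 fold change 0.46, SE 0.66). Cry1 lay between 41.6 in mouse 591 and 167 in mouse 658 (log2 fold change -0.31, SE 0.30).

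**Figure D3:**
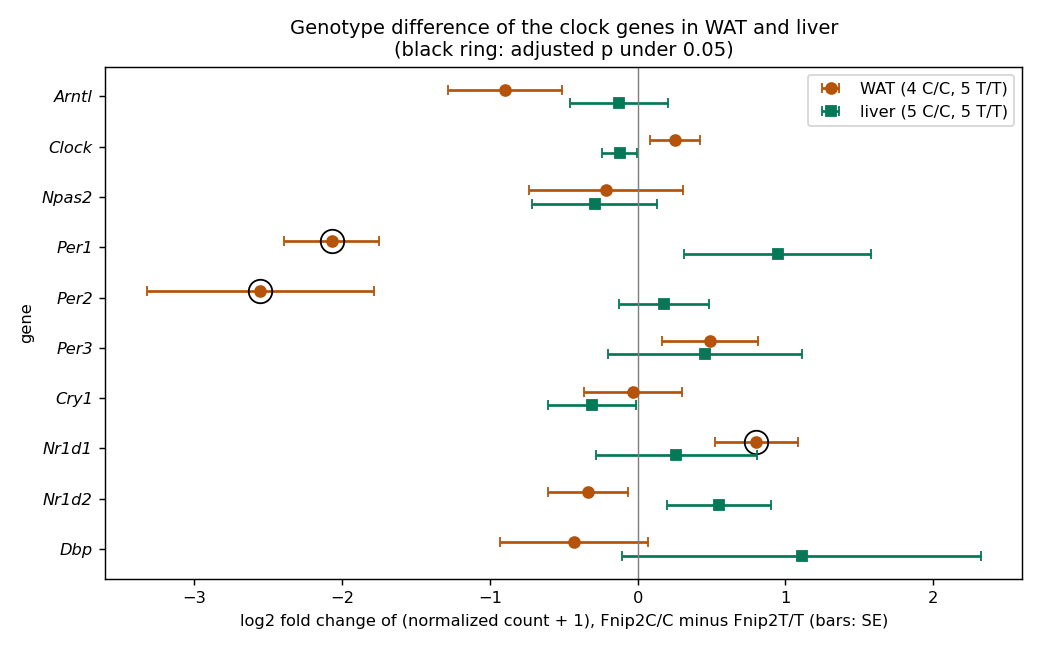
Log2 fold change of the clock genes, Fnip2C/C minus Fnip2T/T, on the log2(normalized count + 1) scale in WAT (brown circles) and liver (green squares), with bars of 1 SE and a ring where the limma adjusted p is under 0.05. In WAT Per1 lies at -2.07, Per2 at -2.55 and Nr1d1 at 0.80, and in liver the corresponding values are 0.95, 0.18 and 0.26.

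The genotype difference itself differed between WAT and liver for Per1 and Per2. The tables were normalized separately, so levels are not compared between the tissues, only the differences within each. The interaction, the WAT effect minus the liver effect, was -3.02 for Per1 on the log2 scale (SE 0.71, limma adjusted p = 0.00422) and -2.73 for Per2 (SE 0.79, limma adjusted p = 0.0141, and -1.35 with a pseudocount of 10), and these 2 of 10 members compare with 29.1% of the 10403 genes kept in both tissues. With the mouse as a replicate block the adjusted p-values were 0.00601 and 0.0197, against a background of 26.5%. In the 6 mice that gave both tissues, with the block, the differences were -2.74 (SE 0.88) and -2.55 (SE 0.99) and neither passed (limma adjusted p = 0.0576 and 0.0992). The other 8 members did not pass the test of the interaction. Nr1d1, called in WAT and not in liver, had an interaction of 0.54 (SE 0.62, limma adjusted p = 0.538), so that its effect was not shown to differ between the tissues. The widest of the remaining differences was that of Dbp, -1.54, with an SE of 1.35, which was -0.77 without mouse 591.

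In the 6 mice with both tissues, 590 and 638 of Fnip2C/C and 607, 608, 657 and 658 of Fnip2T/T, the level of a clock gene in liver did not predict its level in WAT by any test that passed. Over 10 members, Pearson's r between the tissues was taken on log2 values that were not centred on the genotype. It ranged from -0.26 for Per1 to 0.80 for Dbp. The lowest p adjusted over the 10 was 0.91 in exact permutation tests over 720 pairings. For Dbp, Spearman's rho was 0.31 and the exact permutation p of r was 0.107. That relation rested on mouse 607, which was highest in both tissues at 96.2 in liver and 128 in WAT, and without the mice 607 and 657, which lay farthest from the median liver value, r was -0.16. Npas2 had r = 0.63 (rho 0.54, exact permutation p = 0.182) and r = 0.72 without the mice 638 and 658. Nr1d2 had r = 0.53 (rho 0.71, exact permutation p = 0.278) and r = 0.50 without the mice 607 and 658. Arntl, Clock, Per1, Cry1, Per2, Per3 and Nr1d1 had r between -0.26 and 0.41. Without the 2 mice farthest from the median liver value of each gene, Nr1d1 moved from 0.01 to -0.80 and Per1 to -0.68. Clock moved from -0.23 to 0.63 and Cry1 from -0.14 to 0.58. These values depend on which of the 6 mice are used, and leaving out only 1 mouse did not move them as far in these directions. On values centred on the genotype, with all 6 mice, r ranged from -0.13 for Cry1 to 0.96 for Dbp. The exact tests on centred values have too few orders for a gene to pass after adjustment. With 6 mice the tests between the tissues can pass only for strong relations, and they do not show that the tissues of a mouse are unrelated.

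**Figure D4:**
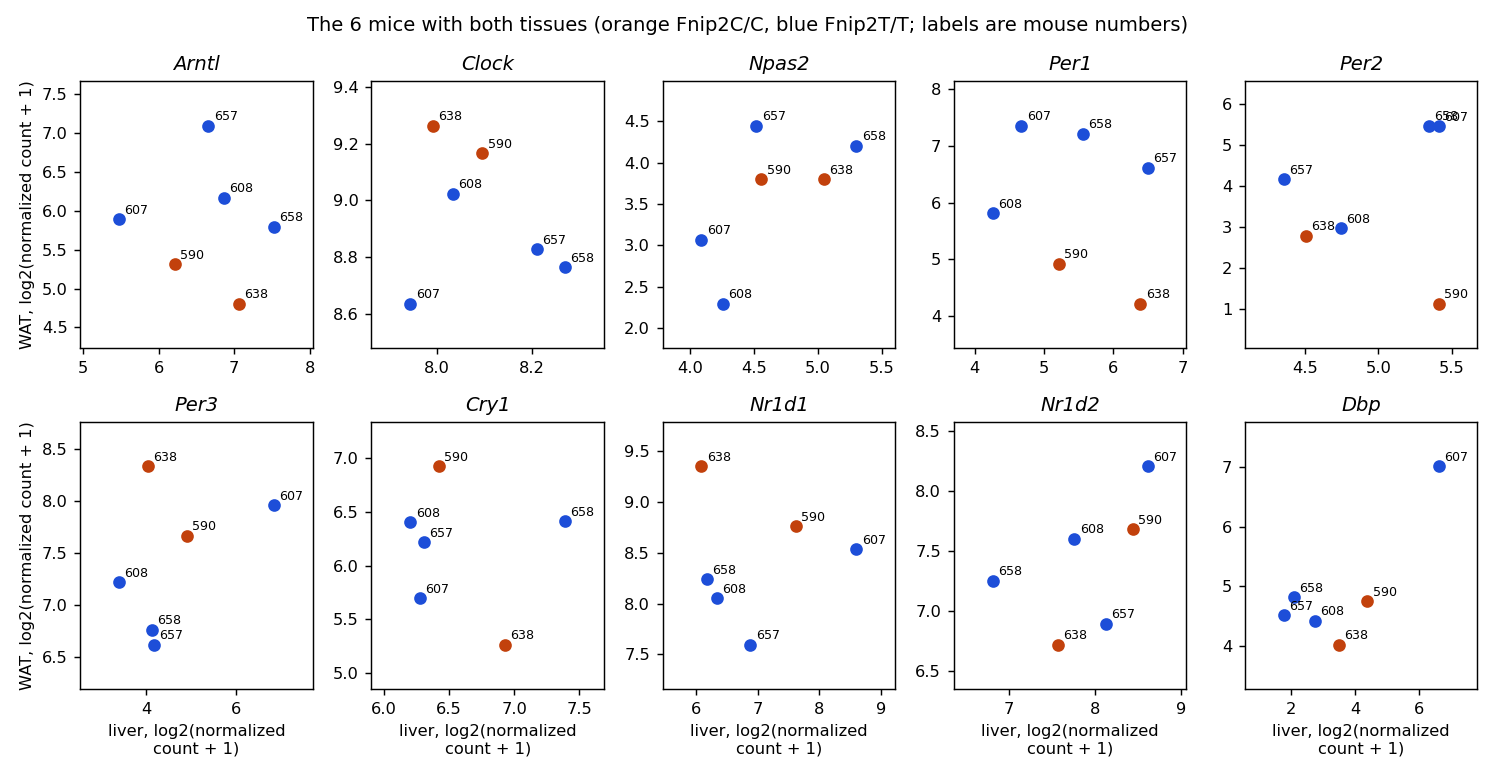
Level of each clock gene in liver (x axis) and in WAT (y axis) of the same mouse, both as log2(normalized count + 1), for the 6 mice with both tissues, labelled with the mouse number (orange Fnip2C/C, blue Fnip2T/T). Mouse 607 stands alone at the upper right of the Dbp panel, and the Per1 points of the 2 Fnip2C/C mice lie at the bottom of their panel.

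Within a tissue, Arntl was compared with each of the other 9 members, and the pairs that passed an adjusted p of 0.05 were Nr1d1 in both tissues and Nr1d2 in liver. After each value was centred on the mean of its genotype, Arntl and Nr1d1 had r = -0.94 over the 10 livers (rho -0.94, exact permutation p = 0.000347, adjusted p = 0.0031 over 18 pairs) and r = -0.93 over the 9 WAT libraries (rho -0.95, exact permutation p = 0.000694, adjusted p = 0.0042). Without the mice 607 and 658, whose liver Arntl lay farthest from the median, r in liver was -0.94, and without the mice 593 and 657 r in WAT was -0.84. Nr1d2 followed the same course in liver, with r = -0.91 (rho -0.93, adjusted p = 0.0025) and -0.84 without these mice. In WAT, Nr1d2 had r = -0.44 (adjusted p = 0.418), and whether this differs from the liver was not tested. The WAT value of Nr1d1 was -0.82 with an adjusted p of 0.0646 once every library had the same total, and the adjusted p was 0.0521 without mouse 657.

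**Figure D5:**
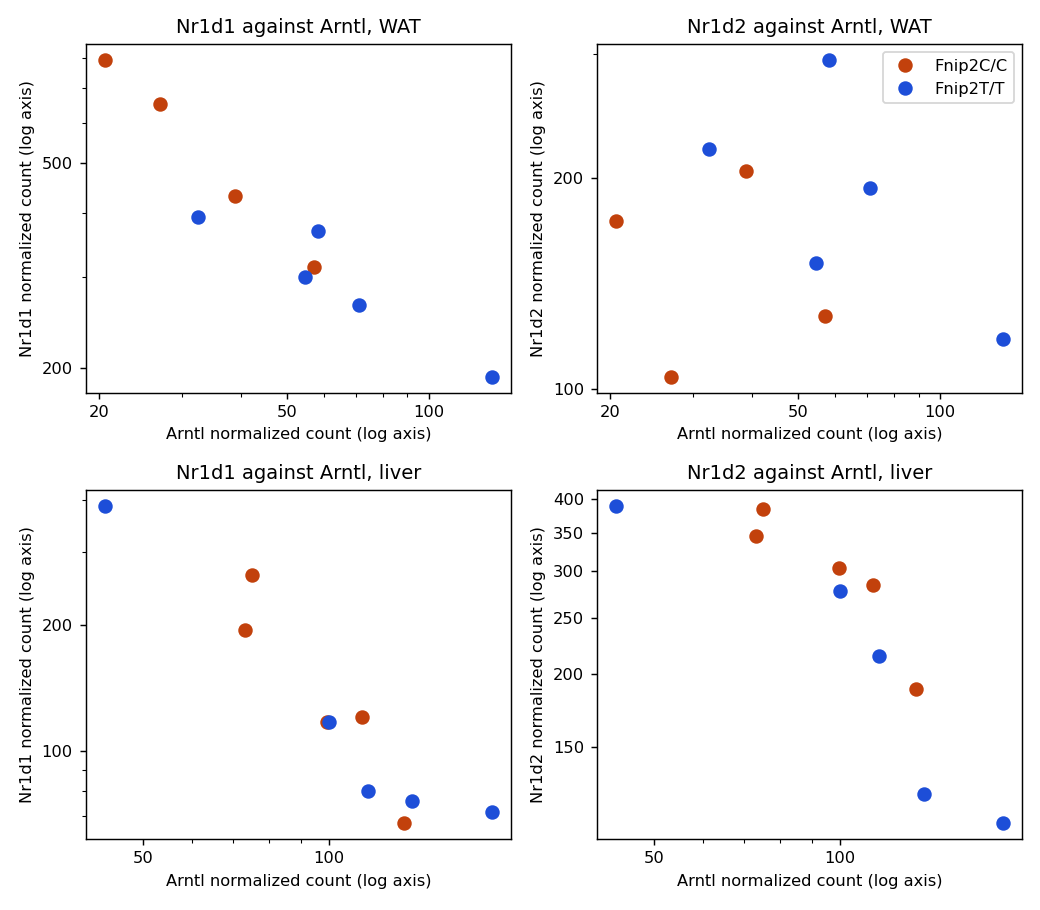
Normalized counts of Nr1d1 (left) and Nr1d2 (right) against those of Arntl on log axes, in WAT (upper row, 9 mice) and liver (lower row, 10 mice), with Fnip2C/C in orange and Fnip2T/T in blue. Nr1d1 falls as Arntl rises in both tissues, and Nr1d2 does so in liver, while in WAT its points scatter (r = -0.44 after centring on genotype).

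The other members followed Arntl less closely, and none of their pairs passed the test over the 18 pairs. In liver, Per3 and Dbp were lower where Arntl was higher, with r = -0.82 and -0.80 (adjusted p = 0.0687 and 0.0685), falling to -0.66 and -0.67 without the mice 607 and 658. Npas2 and Cry1 were higher with Arntl, with r = 0.58 and 0.65 (adjusted p = 0.0685 and 0.0867). In WAT, Per3 had r = -0.76 with Arntl (adjusted p = 0.0687) and -0.48 without the mice 593 and 657. Per1 and Per2, called between the genotypes in WAT as Nr1d1 was, had r of -0.08 and 0.12 with Arntl there. With values not centred on the genotype, 5 pairs passed in place of 3, Npas2 in liver and Per3 in WAT being added.

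The relation of Nr1d1 to Arntl can be read from single mice. On the log2 scale, the ratio of Nr1d1 to Arntl within a liver ran from -1.36 in mouse 658 to 3.15 in mouse 607, both Fnip2T/T, and the Fnip2C/C livers lay between them from -0.98 in mouse 638 to 1.81 in mouse 591. In WAT it ran from 0.50 in the Fnip2T/T mouse 657 to 5.27 in the Fnip2C/C mouse 599. The ratio of Dbp to Arntl in liver was 1.15 and 0.90 in the mice 607 and 591 and between -6.20 and -1.88 in the other 8. These ratios set reads of different genes against each other and serve only to order the libraries. In liver, each genotype held 1 of the 2 livers with the highest ratio. Among the other 8 livers, the ratio of Dbp to Arntl ran from -4.74 to -1.88 in Fnip2C/C and from -6.20 to -4.33 in Fnip2T/T. The genotypes overlapped there through the Fnip2C/C mouse 639 and the Fnip2T/T mouse 608. Whether the ratios differ between the genotypes was not tested.

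Promoter sequence of the members was searched for the elements through which clock proteins are known to act. RefSeq windows on GRCm38.p6 covered 250 bases before to 50 bases after a gene's start. They were available for 9 of the 10 members in 13 windows, with none for Per2. The shares below are over all 32851 such windows. Both strands were searched for the E-box CACGTG, held by 7.15% of windows, and its variant CACGTT (4.68%). The ROR and REV-ERB element was searched as TAGGTCA or TGGGTCA (6.45%), the D-box as TTATGTAA (0.938%) and the cAMP element as TGACGTCA (1.79%). The matched stretches are shown for every member that held a match, whether or not it was called. The element is in capitals, as read 5′ to 3′ on the strand of the gene. Arntl and Per1 had 2 windows each and held their match in 1 of them.
Arntl, REV-ERB element: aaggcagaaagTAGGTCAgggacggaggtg
Per1, E-box: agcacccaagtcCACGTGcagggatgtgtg
Cry1, E-box: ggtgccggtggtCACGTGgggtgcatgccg
Cry1, E-box variant: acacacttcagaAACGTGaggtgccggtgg
Nr1d1, E-box variant: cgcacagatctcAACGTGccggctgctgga
Per3, upstream D-box: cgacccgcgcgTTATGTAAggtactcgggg
Per3, downstream D-box: cccgcccgcggTTATGTAAcccccgccgtg

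The Arntl stretch lies at chr7:113207530-113207559 on the plus strand, with the element beginning 30 bases after the gene's start. The Per1 E-box stretch lies at chr11:69098771-69098800 on the plus strand and the Nr1d1 stretch at chr11:98775388-98775417 on the minus strand. Those of Cry1 lie at chr10:85185097-85185126 and chr10:85185116-85185145, and those of Per3 at chr4:151044852-151044881 and chr4:151044805-151044834, all on the minus strand. Clock, Npas2, Nr1d2 and Dbp held none of these letters in their windows, and no member held the cAMP element. A match of letters describes the sequence and does not show that a protein binds there in these tissues.

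Genes outside the 10 members, with a mean of at least 50 normalized counts, were ranked by their r with Arntl. The members were left out of this ranking. Of these, Nr1d1 (-0.94 in liver, -0.93 in WAT) and Nr1d2 (-0.91 in liver) would have stood among the 5 lowest. In liver, over 7625 genes, the highest r with Arntl on genotype-centred values belonged to Dusp1 (0.93), Gm9794, Trappc1, Tlk1 and Hsd17b13 (0.89). The lowest belonged to Sgk2 (-0.97), Bach1, Csf1r, Tef (-0.89) and Psmd9. Tef, a relative of Dbp that also acts through D-boxes, was the only gene of the other clock lists used here among them. In WAT, over 8088 genes, the highest were A630089N07Rik (0.93), Ttyh2, Cerk, Ypel2 and Npr1 (0.88), and the lowest were Map2k5 (-0.97), 4930402H24Rik, Nmt1, Rnf121 and Nfia (-0.92). No ranked gene stood in the lists of both tissues. With 9 or 10 libraries and so many genes, values of this size are given as a description only.

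The rest of the clock was covered by a list of 21 further components and a list of 14 output genes. In WAT, 17 of the components were tested, and 3 were higher and 1 lower in Fnip2C/C, against 15.1% higher and 17% lower among all genes, with a median log2 fold change of 0.07 against 0.02 over all genes. Rora, whose product activates Arntl through the element that the REV-ERB proteins occupy, had a mean of 867 normalized counts in Fnip2C/C and 416 in Fnip2T/T, with no overlap (log2 fold change 1.04, SE 0.18, limma adjusted p = 0.0018). Of the kinases that mark clock proteins for turnover, Csnk1e (0.80) and Gsk3b (0.68) were higher, and Csnk1d (-0.94) was lower, at -0.58 without mouse 638. Cry2, the second Cryptochrome, had a log2 fold change of -0.19 (SE 0.26). In liver, 16 of the components were tested and none was called, and in the interaction the same 4 genes were called of 15 tested, against 29.1% of all genes, with Rora at 1.11 (SE 0.21, limma adjusted p = 0.00065). Of these, Csnk1d and Gsk3b were lost in the 6 mice with both tissues and the block (limma adjusted p = 0.0857 and 0.089), Csnk1d without mouse 607, Gsk3b without mouse 607 or 638, and Csnk1e without any 1 of the mice 590, 592, 638, 607 and 658 (adjusted p up to 0.0969). Without mouse 638 the Csnk1d interaction was -0.62.

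Of the output genes, 11 were tested in WAT, with 1 higher and 3 lower in Fnip2C/C and a median log2 fold change of -0.34, so that 4 of 11 were called against 32.1% of all genes. Tsc22d3, a transcript known to be induced by glucocorticoids, had means of 71.0 normalized counts in Fnip2C/C and 226 in Fnip2T/T, with no overlap (log2 fold change -1.61, SE 0.22, limma adjusted p = 0.000751). Gys2, a glycogen synthase, had means of 15.9 in Fnip2C/C and 63.5 in Fnip2T/T (log2 fold change -2.46, SE 0.61, limma adjusted p = 0.0103). The size for Gys2 was -1.66 without mouse 638 and -1.64 with a pseudocount of 10, and its call was kept in both fits. Cdkn1a, an inhibitor of the cell cycle, had means of 167 and 362 (log2 fold change -1.09, SE 0.24, limma adjusted p = 0.00555). Usp2, a deubiquitinase, was higher (0.89). In the interaction 3 of the 11 output genes tested were called, Tsc22d3, Gys2 and Noct, all with a lower WAT than liver effect, against 29.1% of all genes. In the 6 mice with both tissues and the block, Gys2 and Noct were lost (limma adjusted p = 0.101 and 0.22), with Noct at -0.93 in place of -1.47, and Noct was also lost without any 1 of the mice 591, 593, 638, 639, 607, 608, 609, 657 and 658 (adjusted p up to 0.0983). In liver, none of the 14 output genes was called, and the lowest p-values belonged to Lpin1, Rgs16 and Noct, with log2 fold changes of 1.08 (SE 0.57), 1.67 (SE 1.03) and 0.51 (SE 0.34).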

How the data were processed

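Strand-keeping 3′ tag libraries (QuantSeq FWD) of liver and visceral WAT RNA were sequenced on an Illumina NextSeq, with more input RNA for WAT. The labels list 76 run samples, 4 per mouse and tissue, and each deposited table holds 1 column per mouse, giving 19 libraries. The submitters' processing notes name FastQC 0.11.9, HISAT2, SAMtools 1.12, HTSeq, DESeq2 and the build GRCm39, without settings. The deposited signal is, per gene, a read count scaled by the authors with 1 factor per library, each tissue on its own. Dividing by the step of 1 read gave whole reads for 100% of the values (within 1.8e-09). The reads are not independent molecules, since no molecular identifiers are mentioned, and totals cover reads assigned to genes. A single column of the WAT table (1 in all) matches none of the labels and was not used.

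Normalized counts plus 1 were log2-transformed. In each tissue, genes reaching a mean of 10 (12798 in WAT, 11710 in liver) were fitted with limma 3.58.1 in R 4.3.3 (trend, robust), with genotype as the only term and Benjamini-Hochberg adjustment over all genes. The interaction was fitted over 19 libraries and the 10403 genes kept in both tables. Members were also compared by exact two-sided permutation. Nothing in the labels says that mice came from separate litters, so p-values measure the spread between these mice. Alternatives were pseudocounts of 0.5 and 10, no filter and a minimum mean of 50, quantile and same-total scaling, terms for the mouse number range and for even RNA label numbers, edgeR 4.0.16 and DESeq2 1.42.0 on the recovered reads, each mouse left out, and the mouse as a block. The mouse numbers pair the tissues because both came from the same animal, and the consensus correlation within a mouse was -0.115. The fits were tested on simulated data in which few genes were changed. They recovered 11.5% of 2-fold changes in WAT, 80.5% in liver and 20.7% in the interaction (12.1% with the block). For 4-fold changes the shares were 91%, 99% and 91.4% (87% with the block). In the data 32.1% of the genes tested in WAT were called, far more than were changed in the simulation. The simulation also drew the tissues of a mouse independently. The shares for WAT, the interaction and the block therefore do not measure what these fits could find in the data. Correlations used Pearson's r and Spearman's rho with exact permutation, within genotype for pairs within a tissue. Promoter sequences came from RefSeq (GRCm38.p6), and overlapping genes from GENCODE vM21. No gene coordinates of the authors' build are given.

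The members and lists were chosen with earlier results of these data known. All members were described. From the other clock lists, written by hand, every gene past the threshold was named, at most 6 with full values, and the 3 of lowest p in liver. The 5 genes outside the members most and least like Arntl were named per tissue. Cry2 and the single mice singled out in the text were picked with their values in view. The cell type lists, also of general knowledge, summed in WAT Fnip2C/C and Fnip2T/T mice to 31.6 to 130 and 153 to 269 normalized counts for hepatocytes, 1387 to 3111 and 1538 to 2563 for macrophages, 36.5 to 75.0 and 20.5 to 36.0 for lymphocytes, 423 to 1179 and 259 to 1055 for mesothelium, 107 to 235 and 108 to 186 for pancreatic acinar cells, and 2292 to 3593 and 3008 to 4427 for endothelium. In liver the summed lists overlapped between the genotypes.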

Additional observations from a re-analysis of the deposited data

Results flagged for a closer look

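Among the 40 groups of member values, defined by gene, tissue and genotype, 6 held a mouse set apart from the others by more than Dixon's critical value on the log2 scale, and chance alone sets apart about 1 in 20 groups. The gap of such a mouse to its nearest neighbour is given as a share of the group's whole range. The Fnip2T/T mouse 607 was the highest for Dbp in liver (gap 0.757, 96.2 normalized counts) and in WAT (gap 0.789, 128), the highest for Per3 in liver (gap 0.741, 113) and the lowest for Cry1 in WAT (gap 0.728, 50.9). The Fnip2C/C mouse 591 was the lowest for Npas2 in liver (gap 0.81, 4.53), and the Fnip2C/C mouse 638 was the highest for Per2 in WAT (gap 0.907, 5.86, from 5 reads). Flags of 1 mouse in several genes are not independent of each other.

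The difference of the genotype effect between WAT and liver passed the test for Per1, at -3.02 on the log2 scale, and for Per2, at -2.73.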

How the results depend on the processing

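The number of members called in WAT, 3, lay between 2 and 3 under every filter, scaling, pseudocount and tool tried and between 1 and 4 with each mouse left out, the lowest value coming without mouse 599, 657 or 658 and the highest without mouse 593 or 609. In liver it was 0 throughout. The number of genes called was between 3023 and 4260 in WAT and 0 in liver with each mouse left out. The 2 members with a different effect in WAT and liver were 1 with a minimum mean of 50, which removes Per2, and 0 in the 6 mice with both tissues and the replicate block, a fit of fewer samples, and 2 with each mouse left out. Pairing the tissues of a mouse with the block over all libraries changed no other call of a member. The pairs with Arntl that passed were 5 on values not centred on the genotype, 2 with the same total, and 2 to 5 with each mouse left out, 5 coming without mouse 608. No correlation between the tissues passed under any alternative. With a mouse left out, or with centred values, the exact tests have too few orders for a single gene to pass after adjustment. These alternatives therefore cannot decide the question. A term for even RNA label numbers was not run in WAT, where it equals the genotype.

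Of the values of single genes and pairs, 1192 kept their direction and side of the threshold, 37 lost and 8 gained it, and 49 changed sign; the cause was not tested. With quantile normalization Npas2 in WAT was 0.027 and Cry1 0.084, and Cry1 was 0.092 with edgeR and 0.12 with DESeq2. Arntl in liver was 0.026 with the term for mouse numbers. In the interaction, Npas2 was -0.0055 with a pseudocount of 10, Per3 was -0.027 with the block and -0.037 with the same total, and Cry1 was -0.22 in the 6 mice. Between the tissues, r on centred values was 0.025 for Clock and 0.052 for Per1. With Arntl in WAT, Per1 had r = 0.061 with the same total and 0.51 uncentred.

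With each mouse left out, the log2 fold change ranged from -0.44 to 0.076 for Arntl in liver, -0.28 to 0.27 for Cry1, -0.62 to 0.071 for Dbp and -0.55 to 0.089 for Npas2 in WAT, -0.48 to 0.17 for Npas2 and -0.090 to 0.32 for Per2 in liver, and in the interaction from -0.39 to 0.38 for Npas2 and -0.40 to 0.38 for Per3. Between the tissues, r ranged from -0.19 to 0.16 for Arntl, -0.91 to 0.030 for Clock, -0.59 to 0.20 for Cry1, -0.13 to 0.88 for Dbp, -0.11 to 0.55 for Nr1d1, -0.49 to 0.17 for Per1 and -0.12 to 0.79 for Per2. With Arntl, it ranged from -0.16 to 0.62 for Clock and -0.016 to 0.28 for Per1 in liver, and in WAT from -0.10 to 0.53 for Dbp, -0.70 to 0.076 for Npas2, -0.32 to 0.011 for Per1 and -0.40 to 0.24 for Per2. Per2 in WAT and Dbp in liver rested on few reads in many libraries, and depth limits what their values can show.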
